A study of Mus musculus with 2 samples.

Results

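The cells described here are retinal pigment epithelium (RPE) cells with high transcript levels of the immediate-early genes (IEGs) Fos, Fosb, Jun, Junb, Egr1, Atf3 and Ier2. They were taken from single-cell libraries of 2 male C57BL/6J mice at postnatal day 36, R1 and R2, and the labels name no other genotype and no treatment. Both eyes of a mouse were pooled, so each mouse is 1 sample. RPE was released from the eyecups with warm trypsin, dissociated mechanically, sorted for viable calcein-positive, DAPI-negative cells and loaded on a 10x Genomics chip, which tags each captured transcript with a unique molecular identifier (UMI). Of 5838 deposited cells, 4072 had at least 500 genes, at most 5% mitochondrial UMIs, at least 5% of UMIs from the RPE transcript Ttr, and at least 5000 UMIs. The score of a cell was its summed UMIs of the 7 genes per 10000 UMIs. IEG-high cells were those in the top 10% of their own mouse in which at least 2 of the 7 genes were detected. This gave 254 IEG-high cells, 91 in R1 and 163 in R2, called members below, and 3818 other RPE cells, 2036 in R1 and 1782 in R2.

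Immediate-early genes are transcribed soon after a stimulus without the need for new protein. Fos, Fosb, Jun and Junb encode subunits of the AP-1 transcription factor, Egr1 a zinc-finger factor driven by MAP kinases and serum response factor, Atf3 a stress-induced partner of Jun, and Ier2 a small nuclear protein. Their transcripts are short-lived, since AU-binding proteins such as Zfp36 speed their decay and phosphatases such as Dusp1 switch off the kinases upstream. The RPE is a pigmented monolayer behind the photoreceptors that regenerates the visual chromophore, moves ions and water, and takes up shed photoreceptor tips. Warm enzymatic release of solid tissue is known to raise immediate-early and heat shock genes in single-cell work, and whether it did so here was not measured.

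The 7 genes chose the members, so their levels are a description only. Jun gave 44.0% of the members' score UMIs in R1 and 44.5% in R2, and was found in 94.5% and 95.7% of members. Jun was at 1.99 UMIs per 10000 in R1 members and 0.258 in the other R1 cells, and at 3.81 and 0.763 in R2. Fos was at 0.699 and 0.0197 in R1 and at 1.98 and 0.205 in R2, in the same order of members and other cells. Egr1 was at 0.613 and 0.0429 in R1 and at 1.36 and 0.233 in R2, and Junb at 0.803 and 0.0402 in R1 and at 0.764 and 0.130 in R2. The rarest were Fosb, Ier2 and Atf3, of which Atf3 had 8 member UMIs in R1 and 9 in R2. In the other cells all 7 genes were lower in R1 than in R2, and 70.0% of the R1 cells within the gates had a score of 0 compared with 37.0% in R2.

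A fixed percentile therefore marked a different level in each mouse. The lowest member score was 1.86 in R1 and 5.47 in R2, and the highest scores just outside the top 10% were 1.85 and 5.47. The median member held 5 score UMIs in R1 and 10 in R2. Of the R1 members, 62 had exactly 2 of the 7 genes and 29 had 3 or more, whereas in R2 70 had exactly 2 and 93 had 3 or more. A further 121 R1 cells and 31 R2 cells lay in the top 10% with fewer than 2 score genes and stayed among the other cells. In each mouse 1 member held all 7 genes, and it was the cell with the highest score.

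**Figure D1:**
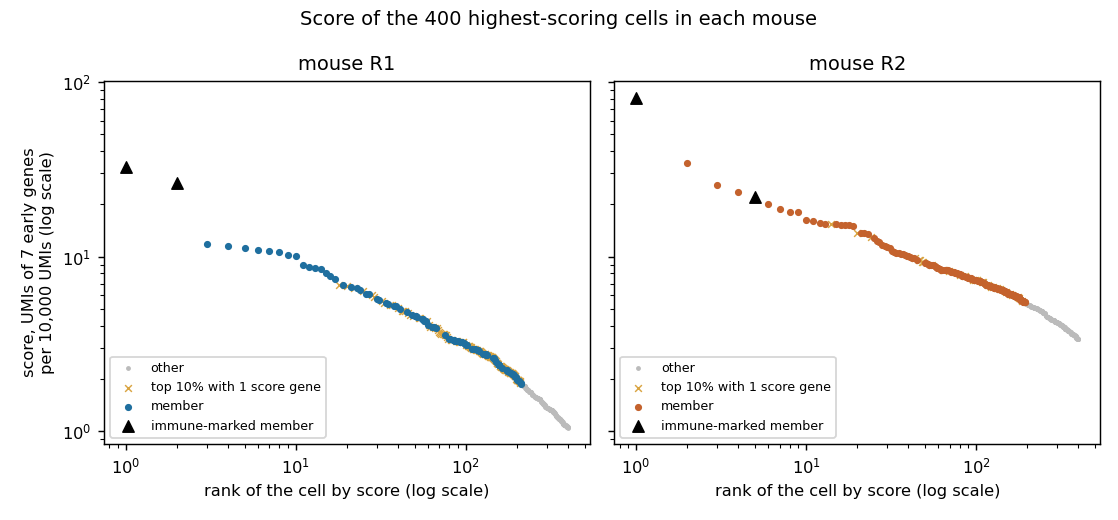
Score (UMIs of the 7 genes per 10000) of the 400 highest-scoring cells of each mouse against rank, both axes on log scales, with members as coloured circles, top 10% cells with 1 score gene as crosses, other cells in grey and members with microglial transcripts as triangles. The triangles stand at ranks 1 and 2 in R1 and at ranks 1 and 5 in R2.

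The members carried RPE transcripts. Of 12 visual cycle genes tested 0 passed the threshold, beside 0.657% among all genes, so the count of calls says nothing particular about this list. The threshold throughout is an adjusted p below 0.05 in edgeR's quasi-likelihood test on UMIs summed per mouse, with the mouse as a block. Rgr, a light-driven retinaldehyde isomerase, was at 209 UMIs per 10000 in R1 members and 204 in the other R1 cells, and at 244 and 235 in R2. Rpe65, the visual cycle isomerase, was at 46.7 and 47.8 in R1 and at 52.6 and 48.3 in R2. This was a log2 fold change (log2FC) of 0.05 ± 0.04 (SE of the fit). Each value after ± in this text is such an SE. It comes from a spread that the fit shared over all genes, and does not measure how far the mice differed in that gene. Rdh5, an 11-cis retinol dehydrogenase, had a log2FC of 0.11 ± 0.03 and an adjusted p of 0.186. These levels were close in both groups of cells. Median UMIs per cell were 11456 in members and 10073.5 in the other cells of R1, and 10932 and 11940 in R2, so by the median members were deeper in R1 and shallower in R2. By the mean members were deeper in R2 as well, at 13726.6 against 13288.4 UMIs. Their median mitochondrial share was 1.25% against 1.22% in R1 and 1.12% against 1.22% in R2. A doublet score marked 12.1% of members and 4.91% of other cells in R1, and 3.68% and 6.34% in R2, in opposite order. The mice shared 12 cell barcodes, and 1 of these marked a member, in 1 mouse.

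In the summed libraries 76 of 11559 genes passed (0.657%), 64 higher in members (0.554%) and 12 lower (0.104%). The score genes were left out of the test. From here on, levels are UMIs per 10000 and are given for members first and other cells second. An unadjusted p below 0.05 was found for 731 genes. In 73 of the 76 genes the ratio had the same direction in both mice, and the exceptions were Trf, Plvap and Cox8b. The members' sums held 1158088 UMIs in R1, score genes included, and 2237442 in R2, and those of the other cells 22364488 and 23679955. With 2 mice the fit had 1 residual degree of freedom and gave all genes a shared spread, and an exact test over the mice alone could not pass the threshold. With the mouse left out as a block 36 genes passed, among them Dusp1, Jund and Gm42418 but not Hspa1a, Hspa1b, Dnajb1, Cyr61, Kcnj13 or Malat1.

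A large part of these calls came from 4 cells. In each mouse, 2 members had at least 2 UMIs over the microglial genes C1qa, C1qb, C1qc, Fcer1g, Tyrobp, Cx3cr1 and Aif1, as did 1 of the other cells in each mouse. The microglial list of 10 genes summed to 165 and 216 UMIs per 10000 in the marked R1 members and to 55.6 and 76.3 in those of R2. Their scores were 32.4 and 26.3 in R1 and 81.4 and 22.0 in R2. Ttr made up 6.24%, 6.45%, 5.405% and 10.1% of their UMIs, and the doublet score marked 0 of the 4. They thus held immune and RPE transcripts together and included the highest-scoring cell of each mouse.

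Without these immune-marked cells, 28 of 11504 genes passed (0.243%), 23 higher (0.2%) and 5 lower (0.0435%), and 672 had an unadjusted p below 0.05. All 28 were among the 76. Of the 48 genes lost, 41 had been higher and 7 lower, and 32 had over 50% of their member UMIs in the 4 cells. Of the 48, 28 no longer passed the filter on low counts and were not tested without these cells. Lyz2, the macrophage lysozyme, had 90 UMIs in R1 members and 8 in the other R1 cells, and 47 and 2 in R2, with 99.3% of the member UMIs in the marked cells. Cxcl2, a neutrophil-attracting chemokine, had 18 and 85 member UMIs, 97.1% of them in the marked cells. These transcripts were almost absent from the other members. C1qa, a complement subunit, and Rgs1, a brake on G-protein signalling, had 100% of their member UMIs there, and Cd14, a lipopolysaccharide co-receptor, had 93.2%.

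Of 6 NF-κB and cytokine genes tested, 2 were higher with all members, Cxcl2 and Cd14, beside 0.554% higher among all genes, and 0 of the 5 still tested without the marked cells, beside 0.2%. The NF-κB subunit genes Rela, Nfkb1 and Relb had log2FCs of 0.16 ± 0.22, 0.22 ± 0.33 and 0.69 ± 0.47 and did not pass. Of 9 microglial markers tested, 7 were higher with all members, beside 0.554% higher among all genes. The marked cells were chosen on these genes other than Lyz2, and without the cells none of the 7 passed the filter on low counts, so they were not tested again. The list summed to 5.54 UMIs per 10000 in R1 members and 1.59 in other R1 cells, and to 1.72 and 1.29 in R2. Without the marked cells the members' sums were 1.87 in R1 and 0.941 in R2. Most of what remained was Csf1r, the gene of the list with the most UMIs, which without the marked cells was at 1.80 and 1.52 in R1 and at 0.900 and 1.24 in R2.

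**Figure D2:**
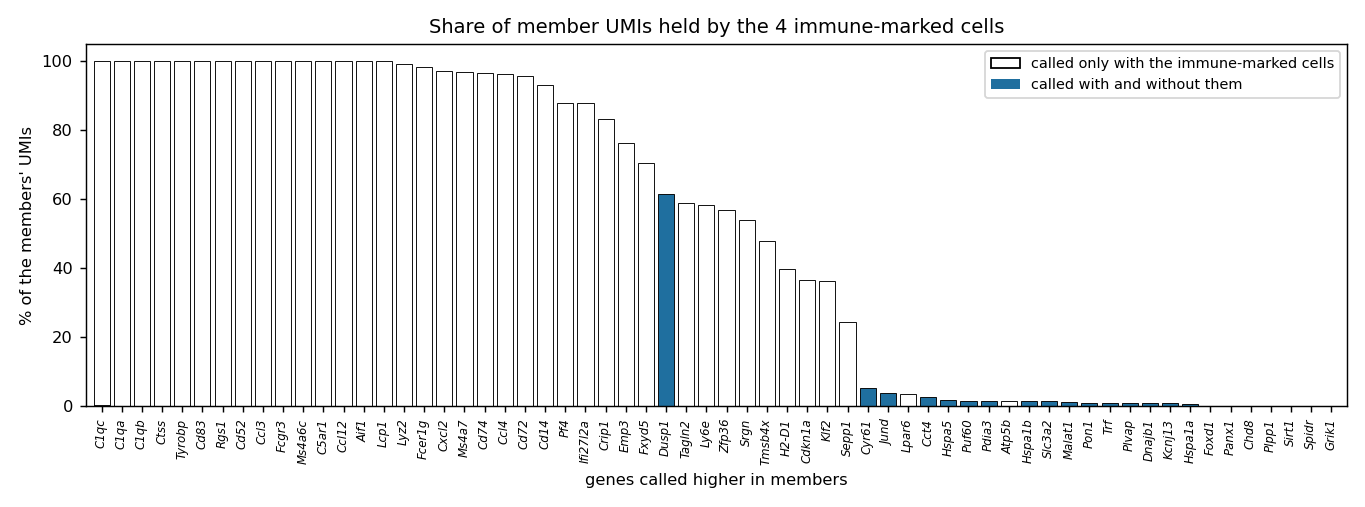
Percentage of the members' UMIs, both mice together, held by the 4 immune-marked cells, for 62 of the 64 genes called higher in members, with filled bars for genes also called without those cells. Dusp1, at 61.4%, is the 1 filled bar above 50%.

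Among the genes called with and without the immune-marked cells, the heat shock gene Hspa1a had the smallest p. The 150 bases before the transcription start were searched for 6 genes called higher in both fits, and the windows of the 4 genes with a match are shown 5′ to 3′ on the gene's strand (RefSeq, GRCm38.p6). Capitals mark the letters that matched a motif, searched on both strands. The motifs were the heat shock element cores GAANNTTC and TTCNNGAA, the cyclic AMP response element TGACGTCA, the AP-1 site TGANTCA, the Egr site GCGGGGGCG and the CArG box of serum response factor, where N is any base.
Hspa1a, chr17:34972157-34972306, minus strand: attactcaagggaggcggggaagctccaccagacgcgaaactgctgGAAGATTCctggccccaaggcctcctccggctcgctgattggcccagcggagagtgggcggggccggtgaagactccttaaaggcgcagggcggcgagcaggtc
Hspa1b, chr17:34959239-34959388, minus strand: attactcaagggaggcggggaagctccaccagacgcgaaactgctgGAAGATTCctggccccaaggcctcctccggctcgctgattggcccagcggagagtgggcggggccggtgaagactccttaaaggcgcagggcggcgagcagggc
Dusp1, chr17:26508473-26508622, minus strand: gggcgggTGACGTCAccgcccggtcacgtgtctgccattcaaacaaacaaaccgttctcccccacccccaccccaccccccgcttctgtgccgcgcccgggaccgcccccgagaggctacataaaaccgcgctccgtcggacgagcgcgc
Cyr61, listed by RefSeq as Ccn1, chr3:145649986-145650135, minus strand: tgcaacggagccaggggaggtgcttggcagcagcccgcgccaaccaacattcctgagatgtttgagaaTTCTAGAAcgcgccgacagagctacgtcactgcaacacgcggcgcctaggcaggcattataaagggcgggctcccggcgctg
The windows of Hspa1a and Hspa1b were alike at 149 of 150 bases, and both held GAAGATTC from position -104 relative to the start. Dusp1 held TGACGTCA from -143, and Cyr61 held TTCTAGAA from -82. The window of Jund and those of both listed starts of Dnajb1 held none of the motifs, and the RefSeq start of Jund lies upstream of the gene start in the files. The RefSeq start of Dusp1 lies inside the longer gene model of the files. Of 32851 RefSeq promoters, windows of the same length held GAANNTTC in 3.95%, TTCNNGAA in 4.21%, TGACGTCA in 1.36%, TGANTCA in 4.24%, GCGGGGGCG in 2.09% and a CArG box in 0.916%. A match describes letters, not a binding site.

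Of 17 heat shock genes, whose products refold damaged proteins, 3 were higher and 14 did not pass, beside 0.554% higher among all genes. The 3 were Hspa1a and Hspa1b, the inducible HSP70 genes, and Dnajb1, the HSP40 co-chaperone that delivers clients to HSP70. Hspa1a (chr17:34969190-34972156) was at 3.42 UMIs per 10000 in R1 members and 1.22 in the other R1 cells, and at 5.29 and 2.57 in R2. This was 2.81-fold higher in R1 (95% counting interval 2.52 to 3.12) and 2.06-fold in R2 (1.93 to 2.19), with a log2FC of 1.24 ± 0.08 and an adjusted p of 2.19e-54. Such intervals cover counting error only. The immune-marked cells held 0.633% of its member UMIs, and without them the log2FC was 1.26 ± 0.08. The rise was spread over cells, with UMIs in 70 of 91 R1 members and 154 of 163 R2 members and at most 31 in a cell. After thinning each cell to 5000 UMIs, 60.4% of members and 30.2% of other cells had a UMI in R1, and 81.6% and 51.2% in R2. Before thinning the shares were 76.9% and 43.1%, and 94.5% and 67.2%. Sag, the rod arrestin gene, which RPE cells should lack, was seen after thinning in 0% of members in either mouse, and in 0.589% (R1) and 0.449% (R2) of the remaining RPE cells.

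Hspa1b (chr17:34956436-34959238) was at 0.613 and 0.217 in R1 and at 0.608 and 0.376 in R2, with a log2FC of 1.04 ± 0.18 and an adjusted p of 2.06e-06. Hspa1a and Hspa1b are near-identical copies, so the division of reads between them is uncertain. Dnajb1 (chr8:83608193-83612653) was at 0.354 and 0.284 in R1 and at 0.885 and 0.367 in R2, with a log2FC of 0.94 ± 0.17 and an adjusted p of 1.95e-05. The Dnajb1 ratio in R1 was 1.25, with a counting interval that reached below 1 (0.886 to 1.71), whereas that in R2 was 2.41 (2.06 to 2.82), and DESeq2 did not call the gene, at a log2FC of 0.86. The heat shock genes with the most UMIs did not pass. Cryab, a small heat shock protein, was at 13.9 and 12.2 in R1 and at 11.8 and 12.02 in R2, and Hspa8, the constitutive HSP70, at 11.6 and 11.3 in R1 and at 7.77 and 6.38 in R2. Hsp90aa1, the inducible HSP90, had a log2FC of 0.05 ± 0.06. The median over the list was 0.09, beside -0.02 over all genes tested.

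Outside the lists, Cct4, a subunit of the cytosolic chaperonin, was at 1.11 and 0.800 in R1 and at 1.03 and 0.728 in R2, with a log2FC of 0.50 ± 0.12 (adjusted p = 0.0099 in edgeR). The counting interval of its ratio lay above 1 in each mouse. Of 16 genes of the endoplasmic reticulum stress list, 2 were higher and 14 did not pass, beside 0.554% higher among all genes. Hspa5, the chaperone BiP, was at 5.33 and 4.59 in R1 and at 3.53 and 2.85 in R2, with a log2FC of 0.27 ± 0.07 (adjusted p = 0.0216). Pdia3, a disulfide isomerase, was at 2.69 and 2.21 in R1 and at 2.40 and 1.75 in R2, with a log2FC of 0.39 ± 0.08 (adjusted p = 0.00144). Calr and Hsp90b1, lumenal chaperones with many UMIs, had log2FCs of -0.18 ± 0.07 and 0.05 ± 0.08 and did not pass, and the Calr ratio was 0.888 in R1 and 0.862 in R2. Of 12 genes of the Atf4 list 1 was higher, beside 0.554% higher among all genes. It was the amino acid transporter chain Slc3a2, at 3.72 and 3.40 in R1 and at 4.06 and 3.13 in R2. Its log2FC was 0.27 ± 0.07 (adjusted p = 0.0332 in edgeR). Phgdh, an enzyme of serine synthesis, and Herpud1, a stress-induced membrane protein, had 0.07 ± 0.07 and 0.17 ± 0.11. The calls for Hspa5, Slc3a2, Pdia3 and Cct4 were lost with other cells matched to members in depth, and also in DESeq2. The matched comparison used only 261 other cells in R1 and 424 in R2. A lost call alone does not show that a difference became smaller.

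Of 33 feedback genes, which damp the early response, 3 were higher (Dusp1, Zfp36 and Rgs1) and 30 did not pass, beside 0.554% higher among all genes. Without the immune-marked cells 1 of 31 was higher, Dusp1, beside 0.2%. Dusp1 (chr17:26505590-26562128), the phosphatase that inactivates MAP kinases, was at 0.380 UMIs per 10000 in R1 members and 0.0161 in the other R1 cells, and at 0.568 and 0.0536 in R2. Its log2FC was 3.87 ± 0.31 and its adjusted p 1.16e-32. Of 44 member UMIs in R1 and 127 in R2, 26 and 79 lay in the immune-marked cells, and with these cells counted Dusp1 was detected in 10 R1 and 23 R2 members. Without those cells members were at 0.159 in R1 and 0.217 in R2, and the log2FC was 2.53 ± 0.40 (adjusted p = 5.11e-07). The rise was thus smaller without the marked cells but stayed past the threshold. The call was lost when every cell with markers of other types was left out, which kept 28 R1 and 101 R2 members.

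Zfp36, which encodes tristetraprolin, was at 0.181 and 0.0800 in R1 and at 0.362 and 0.0845 in R2, with a log2FC of 1.74 ± 0.30 and an adjusted p of 1.84e-06. The marked cells held 56.9% of its member UMIs, and without them the log2FC was 0.50 ± 0.36 (adjusted p = 0.952). The members' level was then 0.0441 in R1 and 0.176 in R2. The feedback genes with the most UMIs, Dusp6, which acts on ERK, Zfp36l1 and Dusp4, had log2FCs of -0.08 ± 0.09, 0.11 ± 0.17 and -0.07 ± 0.17 and did not pass. The list's median log2FC was 0.26 with all members and 0.08 without the marked cells, beside -0.02 over all genes tested in each fit. Genes with few UMIs could pass the filter on low counts through the members' sums alone, which pushes such a median up.

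Of 15 further early transcription factor genes tested, 2 were higher, Jund and Klf2, and 13 did not pass, beside 0.554% higher among all genes. Without the immune-marked cells 1 was higher, Jund, beside 0.2% higher among all genes. Jund (chr8:70698949-70700616), an AP-1 subunit also present in resting cells, was at 0.760 UMIs per 10000 in R1 members and 0.299 in the other R1 cells, and at 0.523 and 0.316 in R2. Its log2FC was 1.02 ± 0.17 (adjusted p = 2.0e-06 in edgeR), and 1.00 ± 0.18 without the immune-marked cells (adjusted p = 1.92e-05). Its UMIs were spread over 47 R1 and 70 R2 members. The Jund call was lost without any cell carrying markers of other types. Such cells were 69.2% of members and 46.8% of other cells in R1, and 38.0% and 45.0% in R2. Klf2, a factor typical of endothelial cells and leukocytes, had 26 member UMIs in R1 and 7 in R2, with a log2FC of 3.50 ± 0.78 (adjusted p = 0.002). It was 2.82 ± 0.88 without the immune-marked cells (adjusted p = 0.229) and 0.05 when 2 endothelial-marked members of R1 were left out as well. Nr4a1, an orphan nuclear receptor, had 3 and 10 member UMIs and an adjusted p of 0.381. Bhlhe40, a repressor linked to the clock, was at 0.648 and 0.760 in R1 and at 0.510 and 0.755 in R2 and did not pass. Cebpb, a bZIP factor, had a log2FC of 0.33 ± 0.14 with all members and -0.22 ± 0.15 without the marked cells, neither past the threshold. Egr3, Egr4, Myc and Npas4 had no UMI in either group, and Egr2, Nr4a3 and Arc had none in members. The median log2FC over the 15 genes was 0.83, and 0.79 without the marked cells, beside -0.02 over all genes tested in each fit. The limit given for the feedback median applies here too, so these medians are not a result about the list. The 24 listed genes in the files summed to 3.58 and 2.33 in R1 and to 2.27 and 2.14 in R2. Without the marked cells they summed to 3.04 and 2.33 in R1 and to 2.01 and 2.14 in R2.

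Of 14 targets of serum response factor, YAP and actin signalling, 2 were higher, Cyr61 and Tagln2, and 12 did not pass, beside 0.554% higher among all genes. Without the immune-marked cells 1 of 13 was higher, Cyr61, beside 0.2% higher among all genes. Cyr61 (chr3:145646976-145649981), a secreted matrix protein, was at 0.561 UMIs per 10000 in R1 members and 0.193 in the other R1 cells, and at 1.198 and 0.577 in R2. This was 2.91-fold higher in R1 (2.20 to 3.78) and 2.08-fold in R2 (1.81 to 2.37), with a log2FC of 1.23 ± 0.15 and an adjusted p of 3.61e-13. Without the immune-marked cells the log2FC was 1.11 ± 0.16 (adjusted p = 2.08e-09). Tagln2, an actin-binding protein, had 8 and 9 member UMIs, 58.8% of them in the marked cells. Ctgf, a relative of Cyr61, had 5 and 6 and did not pass. Cnn3, Actb and Acta2, which had the most UMIs of the list, had log2FCs of 0.02 ± 0.06, 0.22 ± 0.07 and 0.13 ± 0.08 and did not pass. Tmsb4x, an actin-sequestering peptide outside the list, had a log2FC of 0.95 ± 0.09 (adjusted p = 1.54e-22), but 0.03 ± 0.11 (adjusted p = 0.995) without the marked cells, which held 47.8% of its member UMIs.

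**Figure D3:**
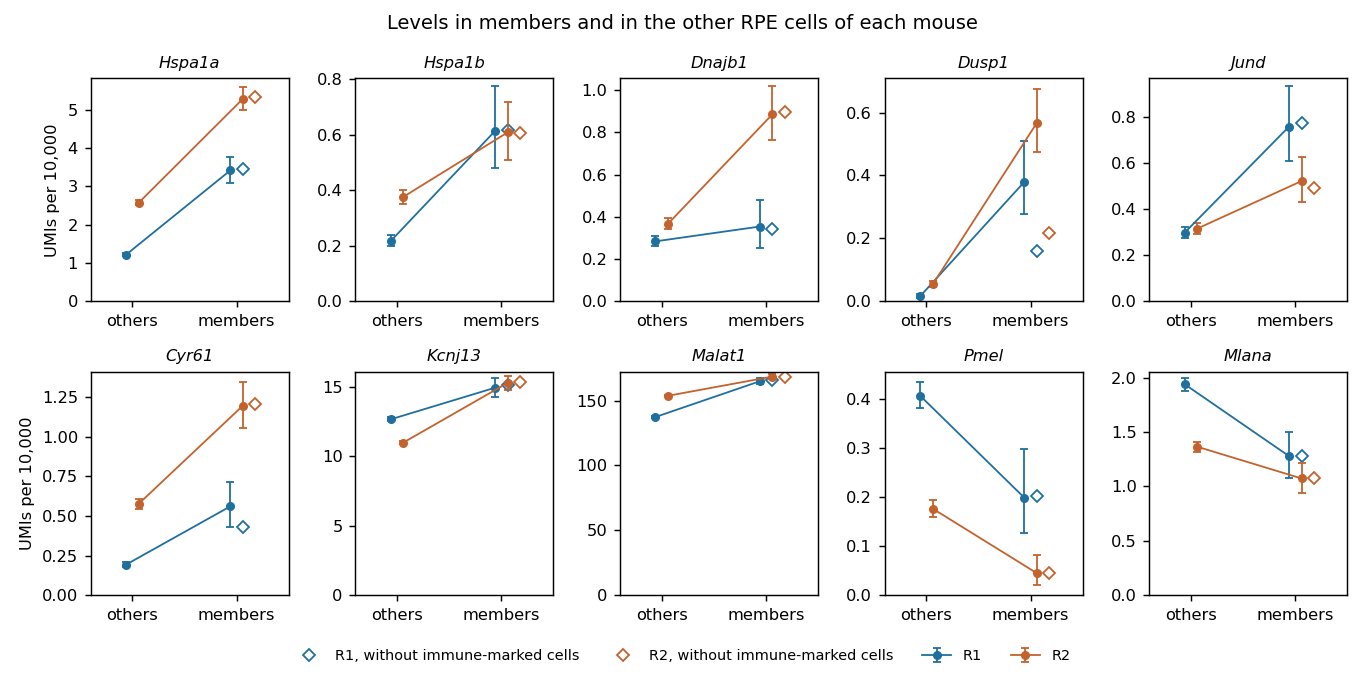
UMIs per 10000 in the other RPE cells and in members, R1 in blue and R2 in orange, for 10 genes, with 95% Poisson intervals (counting error only) and open diamonds for members without the immune-marked cells. The diamonds lie far below the filled points for Dusp1 in both mice and lower for Cyr61 in R1, and close to them in the other panels.

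Of 18 genes of RPE transport and related functions, 1 was higher and 17 did not pass, beside 0.554% higher among all genes. It was Kcnj13, the apical potassium channel Kir7.1, at 15.0 UMIs per 10000 in R1 members and 12.7 in the other R1 cells, and at 15.3 and 11 in R2. The ratio was 1.18 in R1 (1.12 to 1.24) and 1.39 in R2 (1.34 to 1.44), with a log2FC of 0.37 ± 0.05 and an adjusted p of 2.13e-10. Slc16a8, the lactate transporter, Car14, a carbonic anhydrase, and Ctsd, a lysosomal protease, had log2FCs of 0.02 ± 0.04, 0.02 ± 0.04 and 0.03 ± 0.04. Pon1, a paraoxonase, was at 16.8 and 14.6 in R1 and at 17.5 and 15.3 in R2. It had a log2FC of 0.21 ± 0.05 (adjusted p = 0.00518 in edgeR), a call lost with other cells matched in depth. With only 261 matched cells in R1 and 424 in R2, the lost call does not by itself show a smaller difference. Trf, the transferrin gene, was at 128 and 129 in R1 and at 158 and 116 in R2. The Trf difference lay in R2, and its adjusted p of 5.83e-09 became 0.922 in a fit with a spread for each gene. Of 10 RPE transcription factor genes 0 passed, beside 0.657% called among all genes, so that 0 calls is no result about this list. Otx2, Sox9 and Six3 had log2FCs of 0.04 ± 0.07, 0.10 ± 0.10 and -0.12 ± 0.11.

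Of 13 melanogenesis genes 3 were lower (Pmel, Mlana and Trpm1), 0 were higher and 10 did not pass, beside 0.104% lower among all genes. Pmel, the protein of melanosome fibrils, was at 0.199 UMIs per 10000 in R1 members and 0.407 in the other R1 cells, and at 0.0447 and 0.177 in R2. Its log2FC was -1.40 ± 0.28 (adjusted p = 0.00022), and -1.37 ± 0.28 without the immune-marked cells (adjusted p = 0.00128). This rested on 23 and 10 member UMIs, and DESeq2 did not call the gene, at a log2FC of -1.44. Mlana, a melanosome protein, was at 1.28 and 1.94 in R1 and at 1.07 and 1.36 in R2, with a log2FC of -0.45 ± 0.10 (adjusted p = 0.00324) that did not pass with other cells matched in depth, at -0.37, or in DESeq2, at -0.45. Trpm1, a cation channel, had a log2FC of -0.71 ± 0.18 (adjusted p = 0.0171). Without the marked cells, which held none of its member UMIs, the log2FC was nearly the same at -0.68 ± 0.18, with an adjusted p of 0.0637. The share of cells with a UMI, without thinning, differed little in R1. It was 14.3% of members and 15.8% of other cells for Pmel, 64.8% and 66.8% for Mlana, and 33.0% and 30.6% for Trpm1. In R2 it was 3.68% and 9.48%, 53.4% and 58.8%, and 14.7% and 20.8%. A single other R1 cell held 41 UMIs of Pmel. The pigment enzymes did not pass. Dct and Tyr had log2FCs of -0.03 ± 0.06 and 0.09 ± 0.09, and Slc24a5, a melanosome exchanger, had 0.20 ± 0.09. The median of the list was -0.14.

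The score itself was then followed over its range, in cells with a score of 0 and in 5 equal bins of cells above 0, without the immune-marked cells and without a test. Hspa1a was at 1.01, 1.34, 1.45, 1.47, 2.54 and 3.45 UMIs per 10000 from a score of 0 to the highest bin in R1. In R2 it was at 1.55, 2.18, 2.86, 3.02, 3.78 and 5.45. The value rose at each step in both mice, also over the bins that lay wholly below the members' scores. In R1 the steps from 1.34 to 1.45 and 1.47 were small beside the counting error of 289, 225 and 206 UMIs. Cyr61 in R2 rose at each step as well, from 0.371 to 1.14, and in R1 it went from 0.171 to 0.457 with its lowest value, 0.148, in the second bin. Kcnj13 was at 12.7 and 14.2 at the ends of the range in R1 and at 10.2 and 14.6 in R2. Dusp1, on few UMIs, did not rise at each step either. It was at 0.0186, 0, 0.00644, 0.0214, 0.0484 and 0.108 in R1. In R2 it was at 0.0295, 0.0290, 0.0607, 0.0359, 0.161 and 0.156.

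**Figure D4:**
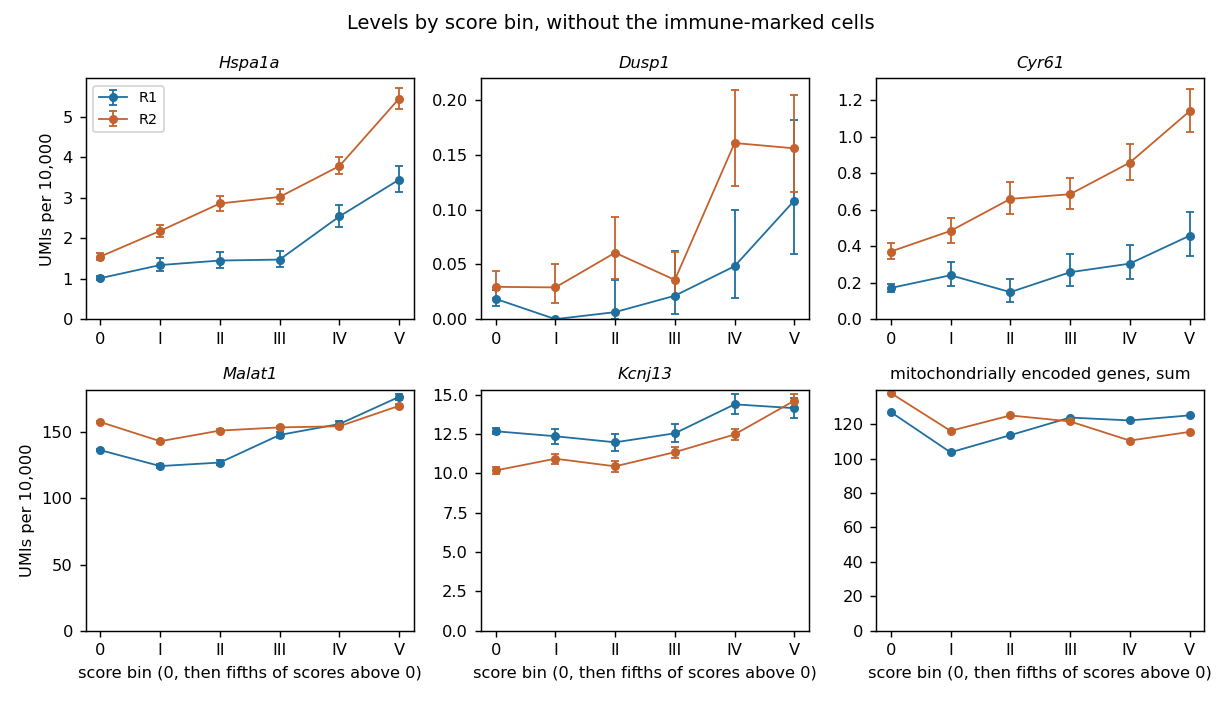
UMIs per 10000 by score bin without the immune-marked cells in R1 (blue) and R2 (orange), where bin 0 holds cells with no score UMI and bins I to V hold the remaining cells in 5 equal parts in order of score, with 95% Poisson intervals for single genes. Hspa1a goes from 1.01 to 3.45 in R1 and from 1.55 to 5.45 in R2.

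Pmel was higher in cells with a score of 0 than in any bin above 0 in both mice, and in R2 it was also lower in the highest bin than in the one before. It was at 0.484 UMIs per 10000 in R1 cells with a score of 0 and at 0.190 to 0.243 in the bins above 0. In R2 it was at 0.266, 0.126, 0.121, 0.119, 0.161 and 0.0674 from a score of 0 to the highest bin. The sum of mitochondrially encoded transcripts was at 127 in R1 and 138 in R2 at a score of 0, and at 104 to 125 and 110.5 to 125 above 0. Depth moved with the bins. The median cell had 9666 UMIs at a score of 0, 16261 in the lowest bin and 8812.5 in the highest bin in R1, and 9975, 15391 and 10816 in R2. The part of depth in these levels was not tested beyond the depth-matched comparison.

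Malat1, a nuclear long noncoding RNA, was higher, at 165 UMIs per 10000 in R1 members and 137 in the other R1 cells, and at 168 and 154 in R2, with a log2FC of 0.21 ± 0.03 (adjusted p = 3.48e-08 in edgeR). It was the 1 gene called of 3 nuclear noncoding RNAs tested, beside 0.554% higher among all genes, and Neat1 and Kcnq1ot1 had log2FCs of -0.07 ± 0.19 and 0.05 ± 0.14. The Malat1 call was lost when members were chosen from cells thinned to equal depth, at a log2FC of 0.22. Of 10 mitochondrially encoded genes, 2 were lower and 8 did not pass, beside 0.104% lower among all genes. mt-Nd4, a subunit of complex I, was at 31.8 and 35.4 in R1 and at 27.0 and 31.2 in R2, with a log2FC of -0.18 ± 0.04 (adjusted p = 0.00872). mt-Cytb, cytochrome b of complex III, was at 45.3 and 49.2 in R1 and at 42.9 and 49.1 in R2, with a log2FC of -0.15 ± 0.04 (adjusted p = 0.0296). Both were small differences in the same direction in each mouse. Without the immune-marked cells the log2FCs were nearly the same, at -0.16 ± 0.04 for mt-Nd4 (adjusted p = 0.0372) and -0.14 ± 0.04 for mt-Cytb (adjusted p = 0.0946). The mt-Nd4 call was lost with depth-matched other cells, at a log2FC of -0.09, and in DESeq2, at -0.17. mt-Nd1 had a log2FC of -0.13 ± 0.04 and did not pass.

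Gm42418 (chr17:39846958-39848788), a gene model that lies over a ribosomal RNA repeat, was lower, at 1.68 UMIs per 10000 in R1 members and 3.46 in the other R1 cells, and at 1.18 and 2.83 in R2. The ratio was 0.487 in R1 (0.420 to 0.561) and 0.417 in R2 (0.367 to 0.471), with a log2FC of -1.15 ± 0.09, and the gene passed in each of 19 alternative settings. Ltbp3, which binds latent TGF-β, was at 0.786 and 1.04 in R1 and at 0.460 and 0.845 in R2, with a log2FC of -0.64 ± 0.14 (adjusted p = 0.000847), and was not called with the top 5% of scores (log2FC -0.48), without immune- and doublet-marked cells (-0.53) or in DESeq2 (-0.62). Vegfa, the vascular growth factor secreted by the RPE, was the 1 gene lower of 11 growth factor genes, beside 0.104% lower among all genes, at 1.26 and 1.80 in R1 and at 1.34 and 1.63 in R2 (log2FC -0.37 ± 0.10, adjusted p = 0.0352). Kif1a, a kinesin, had a log2FC of -0.38 ± 0.11 (adjusted p = 0.0476). Vegfa and Kif1a missed the threshold without the immune-marked cells, with an adjusted p of 0.143 for each, while their log2FCs were nearly as large, at -0.35 ± 0.10 and -0.36 ± 0.11. The marked cells held 0.224% and 0.775% of their member UMIs. Bmp4 and Pdgfa, also growth factors, had log2FCs of 0.10 ± 0.08 and 0.08 ± 0.10.

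Some genes were called on very few cells. In R1, 2 members had at least 2 UMIs over the endothelial genes Cldn5 and Cdh5, as did 0 members of R2 and 0 other cells of either mouse. They held 48 and 37 of the 92 R1 member UMIs of Plvap, which forms endothelial diaphragms, 16 and 13 of the 33 of Plpp1, a lipid phosphatase, and 10 and 8 of the 26 of Klf2. Ttr made up 7.51% and 11.4% of their UMIs, and the doublet score marked neither. The endothelial list of 6 genes, in which Plvap had the most UMIs, summed to 1.13 and 0.125 UMIs per 10000 in R1 and to 0.121 and 0.130 in R2. Without the immune- and endothelial-marked cells 25 genes passed. Plvap and Plpp1 were no longer among them, and their log2FCs went from 1.84 and 1.95 without the immune-marked cells alone to -0.17 and 0.27. Hspa5, Slc3a2 and mt-Nd4, which had UMIs in most cells, also missed the threshold, but their log2FCs of 0.26, 0.27 and -0.15 were close to the 0.27, 0.28 and -0.16 with the endothelial-marked cells kept. Dusp1 still passed, with a log2FC of 2.24 and an adjusted p of 9.52e-05. Single cells also held 24 of 29 R1 member UMIs of Foxd1, 27 of 36 of Panx1 and 27 of 71 of Chd8, and 32 of 36 R2 member UMIs of Sirt1. Foxd1 was also higher in R2 members, 3.45-fold (1.79 to 6.29), with UMIs in 7 members and at most 5 of 15 in a cell. It passed in 18 of 19 alternative settings.

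**Figure D5:**
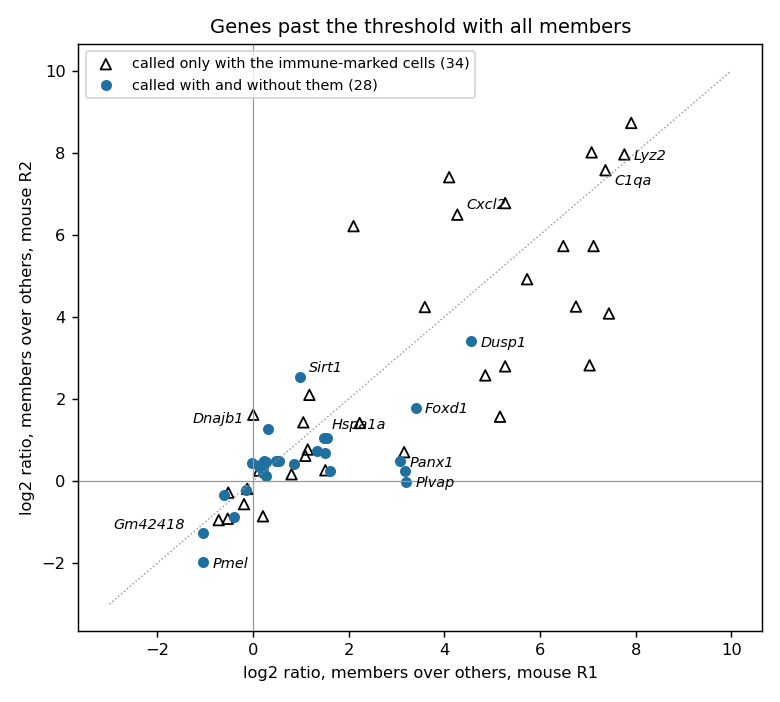
Log2 ratio of the level in members to that in the other RPE cells, R1 on the horizontal and R2 on the vertical axis, for the 62 of 76 called genes with a UMI in all 4 sums, with filled circles for the 28 also called without the immune-marked cells and triangles for the other 34. Triangles reach the highest ratios in both mice, and Plvap lies at 3.20 in R1 and -0.02 in R2.

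Puf60, a splicing factor, was higher, at 0.993 and 0.682 in R1 and at 0.898 and 0.638 in R2 (log2FC 0.52 ± 0.13, adjusted p = 0.0122), a call lost with members chosen at equal depth (log2FC 0.48), without immune- and doublet-marked cells (0.55), and in DESeq2 (0.54). Spidr, a DNA repair scaffold, was at 0.648 and 0.356 in R1 and at 0.639 and 0.480 in R2 (log2FC 0.61 ± 0.16, adjusted p = 0.024), and passed in 8 of 19 alternative settings. It was lost with depth-matched other cells (log2FC 0.66), with the top 5% or 20% of scores (0.26 and 0.38), with a spread for each gene (0.59) and in DESeq2 (0.64), among others. It was detected in 25.3% of members and 22.2% of the rest in R1, and in 35.6% and 27.6% in R2. Cdkn1a, the cyclin-dependent kinase inhibitor p21, was the 1 gene higher of 12 p53 targets, beside 0.554% higher among all genes, with a log2FC of 1.80 ± 0.35 (adjusted p = 9.06e-05). Without the immune-marked cells its log2FC was 1.25 ± 0.40 (adjusted p = 0.258), at 0.141 UMIs per 10000 in members against 0.0479 in R1 and 0.109 against 0.0550 in R2. Bax, Ei24 and Ccng1, p53 targets with more UMIs, had log2FCs of -0.14 ± 0.11, -0.08 ± 0.15 and 0.01 ± 0.20.

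In other gene groups no member passed with or without the immune-marked cells, beside 0.657% and 0.243% called among all genes, so that 0 calls is no result about these lists. These were 24 genes of the kinases and cofactors upstream of the early genes (median log2FC -0.05), 16 clock genes (-0.01) and 19 genes of oxidative and metal stress (0.01). Met, a receptor kinase, and Map2k2 and Map2k1, the MAP kinase kinases, had log2FCs of -0.20 ± 0.09, 0.12 ± 0.10 and -0.17 ± 0.10. Dbp, a clock output factor, was at 5.68 and 5.57 in R1 and at 5.66 and 5.49 in R2, and its relatives Tef and Hlf had log2FCs of -0.14 ± 0.12 and -0.09 ± 0.16. The metallothionein genes Mt1 and Mt2 had log2FCs of 0.03 ± 0.03 and 0.05 ± 0.04, and Gpx4, which detoxifies lipid peroxides, had -0.13 ± 0.05. A missed threshold does not show that a gene was equal in both groups. Markers of fibroblasts (1 tested), melanocytes (3), pericytes (3), rods (3), cones (1), Muller glia (4) and blood (1) had 0 calls. Apoe, the glial marker of most UMIs, which RPE cells also express, was at 183 and 186 in R1 and at 166 and 166 in R2, and Gnat2, the cone marker of most UMIs, at 0.216 and 0.203 in R1 and at 0.232 and 0.209 in R2. The melanocyte list summed to 0.898 and 0.744 UMIs per 10000 in R1 and to 0.720 and 0.650 in R2, with Sox10 its gene of most UMIs and Pax3 at 0. No T-cell marker passed the filter on low counts.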

How the data were processed

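Cells of 2 mice were measured by 10x 3′ single-cell RNA-seq. The authors made the deposited UMI counts with bcl2fastq 2.20.0.422 and Cell Ranger 1.2.0 on GRCm38, per the labels and methods, and the counts were neither normalized nor corrected for free RNA. The 2 matrices list 27998 genes, and a few genes of the lists (Cebpd, Trbc2) were not analysed here. All samples form 1 group, and members were compared with the other RPE cells of the same mouse.

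UMIs were summed over members and over other cells of each mouse, giving 4 sums. The 7 score genes were removed, genes were filtered with filterByExpr, and edgeR 4.0.16 (R 4.3.3) was run with TMM factors, the mouse as a block, quasi-likelihood tests and Benjamini-Hochberg adjustment at 0.05. The block pairs sums from the same animal. Levels are UMIs per 10000 with the score genes kept in the total. Counting intervals are exact at 95% and cover counting error only. Doublets were scored by similarity to simulated pairs of cells, marked at the top 4%, and kept. The fit was also run on simulated data with the same spread for all genes and the same change in both mice. Of 200 changed genes it recovered 55.5% at a log2 change of 1 and 86% at 2. Such data cannot show how the fit treats genes in which the mice differ.

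The members and gene lists were chosen with earlier results of these data known. Named genes were all called early transcription factor and feedback genes, up to 4 of each other list, the 12 largest changes in each direction above 0.5 UMIs per 10000, and the 3 genes of most UMIs in each list; other genes, such as Foxd1, Panx1, Chd8, Sirt1, Plpp1, Cox8b, Pon1, Trf, Rpe65, Ctgf, Nr4a1 and genes with no UMI, were named after their values were seen. The sets of 7 microglial and 2 endothelial genes were also chosen after seeing the data. Alternatives changed the scaling, filters, member and reference choice, depth, doublets and test (DESeq2 1.42.0). Some called genes are not reported here.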

Additional observations from a re-analysis of the deposited data

Results flagged for a closer look

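Cells outside the gates also held transcripts of the 7 score genes, in data that the comparison does not use. Within the gates the genes summed to 0.600 UMIs per 10000 in R1 and 2.03 in R2. Cells with Ttr below 5% of UMIs were at 4.37 in R1 (59 cells) and 13.8 in R2 (19 cells). These levels are over summed cells and rest on 84 and 126 score UMIs, so few cells can carry them. At least 2 score genes were found in 8.47% of these cells in R1 and 15.8% in R2. Within the gates the shares were 5.50% and 28.0%. Cells with over 5% mitochondrial UMIs were at 0.709 in R1 (58 cells) and 2.01 in R2 (28 cells), and cells that passed the Ttr gate with fewer than 5000 UMIs at 1.02 (596 cells) and 2.44 (1002 cells). The cells below the Ttr gate had a median of 3200 UMIs in R1 and 3836 in R2. R1 was below R2 in each of these classes. The cell types of the cells below the Ttr gate were not determined here.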

How the results depend on the processing

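The count of 76 called genes stayed within 1.5 times for other library scaling, no filter on low counts, members chosen at equal depth, top 5% or 20% of scores, other reference cells, removal of doublet-marked cells, a minimum of 8000 UMIs and a robust fit with a spread for each gene (72 calls, 63 shared with the 76). Similar counts did not mean the same genes. With the top 5% of scores 54 of the 76 genes were called again, and with the top 20% 56. The count fell to 36 without the mouse as a replicate block (35 higher, 1 lower), 45 with depth-matched other cells, 32 with Ttr at 8% or more, and 45 with DESeq2 (44 higher, 1 lower). Without any cell carrying markers of other types it was 5. That choice left 28 R1 and 101 R2 members, and its marker lists include Csf1r, which was also found in cells without the other microglial transcripts. Why the count fell was not tested. The calls for Dusp1, Jund, Hspa1b, Dnajb1 and Kcnj13 were among those lost there. The alternatives chosen after seeing the data gave 28 without the immune-marked cells, 23 without these and doublet-marked cells, 25 without immune- and endothelial-marked cells, and 30 in the robust fit without immune-marked cells. The share called higher was 84.2% in the fit described, 97.2% without the block and 97.8% with DESeq2. Some log2FCs reversed. Without immune- and endothelial-marked cells Plvap was at -0.17, Tmsb4x at -0.0639, H2-D1 at -0.0402 and Ifi27l2a at -0.86. Ifi27l2a was at -0.88 without the immune-marked cells, -0.90 in the robust fit without them, and -1.70 without them and doublet-marked cells. Without cells with markers of other types Tmsb4x was at -0.10, Plpp1 at -0.43 and Sirt1 at -0.47. Sirt1 was at -0.41 with members chosen at equal depth and Panx1 at -0.41 with the top 5%. As lone-mouse log2 ratios, Plvap was at -0.0152 without R1 and 3.20 without R2, Trf at 0.44 and -0.0152, and Cox8b at -0.86 and 0.21. The cause was not tested, apart from the cells removed. Over 143 genes (those called and those the naming rule chose) and all alternatives, 15 values reversed, 362 lost the threshold, 13 gained it and 2382 did neither. Leaving out a mouse leaves no test. Depth limits genes with few member UMIs, such as Pmel and Dusp1.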
